A study of Homo sapiens with 4 samples.

Results

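ACTL6A is an actin-related protein that is best known from the BAF remodeller but also sits in the INO80, SRCAP and TIP60 chromatin complexes. Other subunits of these 3 complexes, though not all, were examined here as 30 genes. They were chosen by name from probe sets annotated with a single gene symbol, out of 19775 genes with such a set on the array. They were divided into subunits of INO80 (10 genes), of TIP60 (13 genes), of SRCAP (2 genes) and subunits that at least a pair of the complexes share (5 genes). Expression in the established human cell line SNU638, which derives from a gastric cancer, was profiled on single-colour Affymetrix arrays. The scramble group (2 arrays) carried a scrambled RNA, and the sh-ACTL6A group (2 arrays) carried short hairpin RNA (shRNA) against ACTL6A, delivered by lentivirus from the pLKO.1 vector and followed by puromycin selection. Which of the hairpins each sh-ACTL6A array carried is not given in the labels, nor is the viral treatment of the scramble cells. Nothing in the labels places the arrays of a group in separate cultures, and the spread behind each p-value may therefore be technical. All arrays come from 1 cell line.

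The 3 complexes reshape nucleosomes with a large ATPase each. INO80 slides and spaces nucleosomes, SRCAP exchanges the histone H2A for its variant H2A.Z, and TIP60 joins such an exchanger, EP400, to the lysine acetyltransferase KAT5. Their ATPases are built around a ring of the AAA+ ATPases RUVBL1 and RUVBL2, and actin and ACTL6A dock on a helical region that INO80, SRCAP and EP400 have in common. The complexes are known for work in transcription, replication and repair of DNA breaks, in tumour cells as elsewhere.

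Signals were deposited as log2 values, and all differences below are sh-ACTL6A minus scramble on that scale. A gene was read from its brightest probe set, and it was tested if the mean log2 signal over the 4 arrays reached 5.63, the median of all probe sets. A total of 12286 genes and all 30 subunit genes reached it. Each array measures the pooled RNA of its culture, so less RNA per cell and fewer expressing cells cannot be told apart. The silenced gene, ACTL6A, stood at 11.92 and 11.82 in scramble and at 10.16 and 10.32 in sh-ACTL6A. It fell by 1.63 (95% interval -1.95 to -1.31, limma adjusted p = 0.0408), a call that was lost without scramble replicate 1 (0.9996) or scramble replicate 2 (0.567). All 5 epithelial markers looked up (EPCAM, CDH1, KRT8, KRT18 and KRT19) lay above the signal threshold. Of 5 gastric secretory markers only MUC5AC did, while TFF1, TFF2, MUC6 and GKN1 lay below it. Of the 4 leukocyte markers listed, 2 had a probe set (PTPRC and CD3E), and both lay below. The stromal markers COL1A1, DCN and PECAM1 lay above it, and COL1A2 and VWF below. DCN and PECAM1 did so only on their brightest probe sets, at means of 5.82 and 6.71, while their other sets lay below. Control probes at the 3′ end of the ACTB transcript exceeded those at its 5′ end by 1.63 and 1.21 on replicate 1 of scramble and sh-ACTL6A, against 0.78 on replicate 2 of both, and the part of this difference in the values below was not tested.

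No subunit gene passed the test for a difference between sh-ACTL6A and scramble. None of the 30 genes reached an adjusted p of 0.05 (lowest limma adjusted p = 0.767), where 0.00814% of all tested genes did, and 1 of them, MORF4L1, had an unadjusted p under 0.05, where 5.5% of all genes had. Differences ran from -0.30 for INO80D to 0.45 for JAZF1. A total of 21 genes lay above 0 and 9 below, and 51.9% of all tested genes lay above 0. The median difference was 0.067, beside 0.0090 over all genes tested, and the median size of a difference irrespective of sign was 0.11, beside 0.14 over all genes. A difference of at least 0.2 in size was seen for 9 of the 30 genes and for 36.4% of all genes.

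The intervals show how precisely these arrays measured the difference of each gene, taken singly and on its brightest probe set. They need not cover variation between cultures, since the spread may be technical. For 28 of the 30 genes the 95% interval lay within a 2-fold change either way, as it did for 81.7% of all tested genes, and for 21 it lay within 1.5-fold, as it did for 47.4% of all tested genes. The exceptions at 2-fold were INO80B and JAZF1. These shares, and the median size of a difference above, were not matched for signal, to which the fit ties interval width. The mean signal of 26 of the 30 subunits reached the 75th percentile of probe sets, as did that of 7794 of the 12286 genes tested. On the brightest probe sets the lowest bound of any subunit was -1.12, for INO80B, which is above the whole interval of ACTL6A. Some dimmer sets above the signal threshold reached lower in the fit over probe sets, such as -1.89 for YY1 and -1.54 for ING3. Those bounds lie within the ACTL6A interval or close to it.

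**Figure D1:**
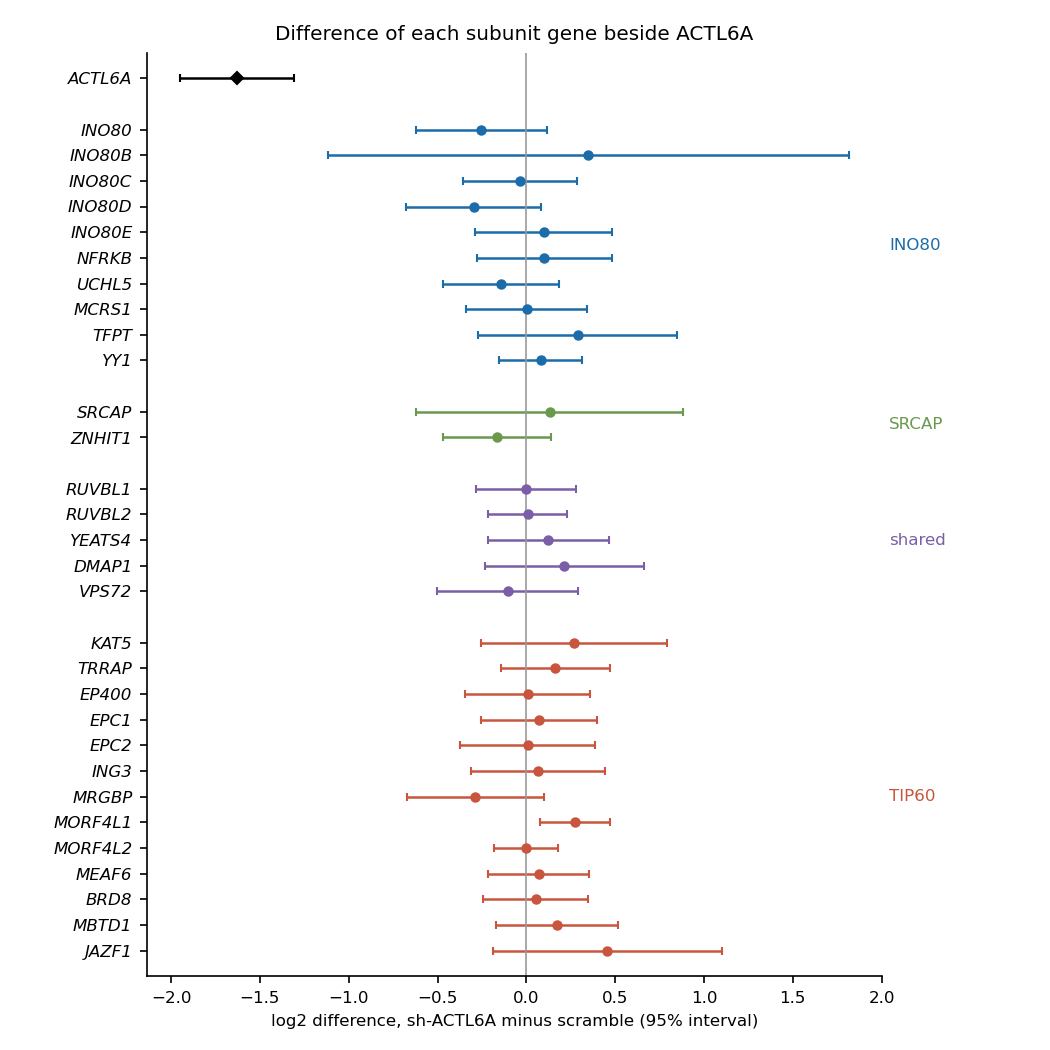
Log2 difference (sh-ACTL6A minus scramble, horizontal axis) of ACTL6A and the 30 subunit genes (vertical axis, coloured by complex), with points for estimates and bars for 95% intervals of the limma fit on 2 arrays per group. ACTL6A lies at -1.63, while the subunit genes lie between -0.30 and 0.45.

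Arrays of the same group lay about as far apart as arrays of different groups, on the subunits and over all genes tested. Against the scramble mean, 16 of 30 genes had the same sign on both sh-ACTL6A arrays, which is 53.3%, and 57.9% of all genes had. Over the 30 genes the root mean square difference was 0.31 between the scramble arrays and 0.39 between the sh-ACTL6A arrays. Between arrays of different groups it was 0.26 to 0.41, which covers the values within groups. Over all genes tested it was 0.37 and 0.44 within the groups and 0.39 to 0.44 between them. Both sh-ACTL6A arrays lay above both scramble arrays for 7 genes (INO80E, TRRAP, ING3, MORF4L1, YEATS4, MBTD1 and JAZF1), which is 23.3% of them, beside 19.3% of all genes. Both lay below for 3 genes (INO80, INO80D and ZNHIT1), which is 10.0%, beside 15.4% of all genes.

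**Figure D2:**
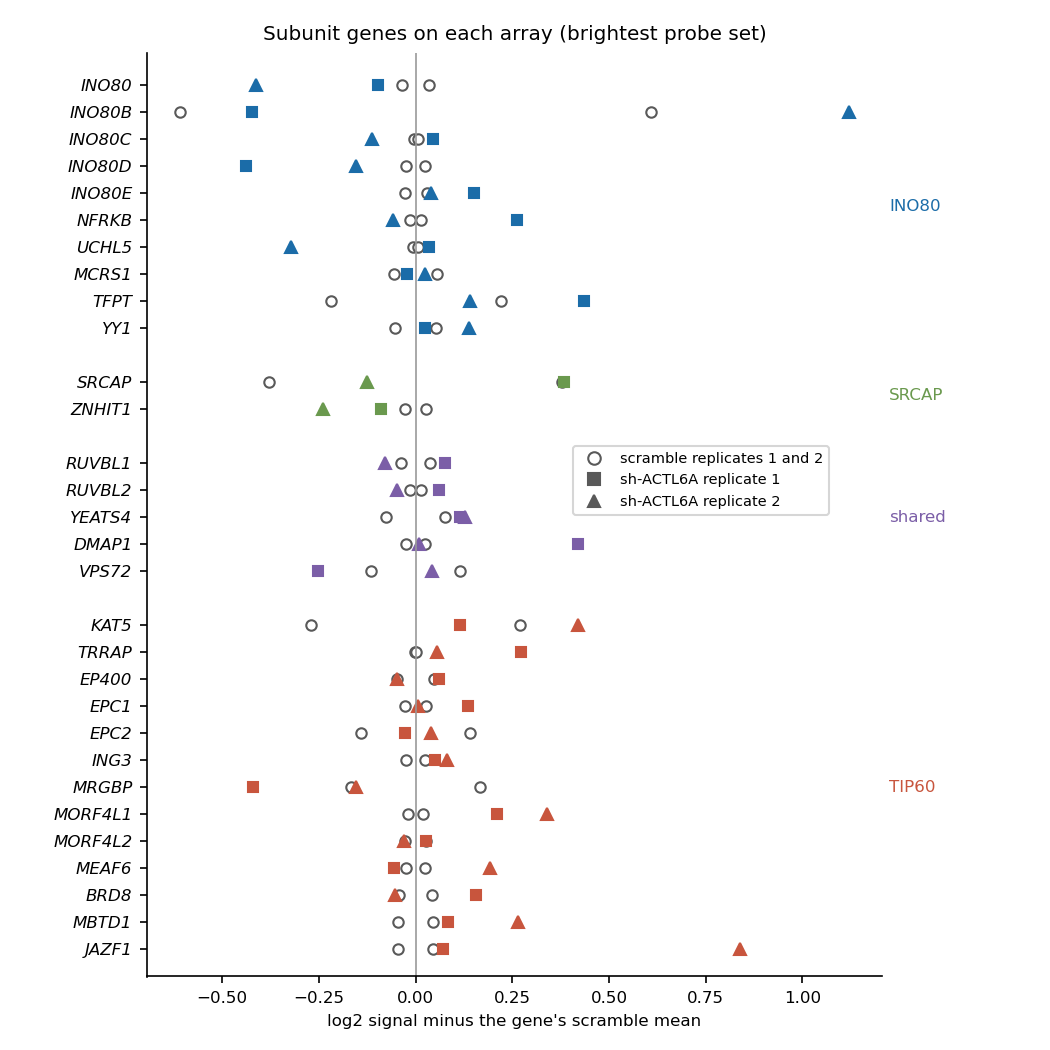
Log2 signal minus the scramble mean of each gene (horizontal axis) for the 30 subunit genes (vertical axis, coloured by complex), with open circles for the scramble arrays, squares for sh-ACTL6A replicate 1 and triangles for sh-ACTL6A replicate 2. Squares and triangles lie on the same side of 0 for 16 of the 30 genes, and the farthest symbol is sh-ACTL6A replicate 2 for INO80B at 1.12.

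Among the INO80 subunits, 6 of 10 genes lay above 0 and 4 below, with a median of 0.041. None passed the test (lowest limma adjusted p = 0.918). INO80, the ATPase that gives the complex its name, read 10.80 and 10.74 in scramble, against 10.67 and 10.36 in sh-ACTL6A. The groups did not overlap, and the difference was -0.25 ± 0.16 (SE, adjusted p = 0.918). It was -0.41 without sh-ACTL6A replicate 1 and -0.097 without sh-ACTL6A replicate 2. That probe set is of the _x_at class, whose probes may also bind other transcripts. The other INO80 probe set read 8.14 and 8.17 in scramble and 8.47 and 8.13 in sh-ACTL6A, so that it overlapped and differed by 0.15, in the opposite direction. INO80D, a subunit found in animals but not in yeast, read 10.21 and 10.16 against 9.75 and 10.03, again without overlap, and it differed by -0.30 ± 0.16 (SE, adjusted p = 0.918). Of its 4 probe sets above the signal threshold, 3 lay below 0 and 1 above, from -0.36 to 0.22. Without sh-ACTL6A replicate 1 the INO80D difference was -0.16, and without sh-ACTL6A replicate 2 it was -0.44.

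The highest values in this group came from INO80B and TFPT, whose arrays varied widely. INO80B, the counterpart of yeast Ies2, read 4.99 and 6.20 in scramble and 5.17 and 6.71 in sh-ACTL6A. Within each group the arrays lay over 1 apart, replicate 2 was the higher one in both, and the difference of 0.35 ± 0.63 (SE) has an interval from -1.12 to 1.81. TFPT read 7.58 and 8.02 against 8.24 and 7.95, with overlapping groups and a difference of 0.29 ± 0.24 (SE, adjusted p = 0.941). The remaining INO80 genes were nearer to 0. UCHL5, a deubiquitinase that joins the complex through NFRKB, read 12.40 and 12.42 against 12.45 and 12.09 and differed by -0.14 ± 0.14 (SE). Its 4 probe sets ran from -0.56 to 0.23, with 2 lower without overlap and 0 higher. NFRKB itself differed by 0.10 ± 0.16 (SE). YY1, the DNA-binding factor of the complex, differed by 0.081 ± 0.10 (SE), and its 6 probe sets, all above the signal threshold, ran from -0.25 to 0.19, none without overlap. INO80C, the counterpart of yeast Ies6, differed by -0.034, INO80E by 0.097 and MCRS1 by 0.0012 ± 0.15 (SE).

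SRCAP and ZNHIT1 stood for the SRCAP complex. SRCAP, its ATPase, read 7.06 and 7.81 in scramble and 7.82 and 7.31 in sh-ACTL6A. The scramble arrays were thus farther apart than the group means, and the difference was 0.13 ± 0.32 (SE, adjusted p = 0.974). A second SRCAP probe set, just above the threshold, read 5.93 and 5.99 in scramble and 5.44 and 5.65 in sh-ACTL6A. It was lower without overlap and differed by -0.42 ± 0.43 (SE), and the mean of the pair of sets was -0.14. ZNHIT1, which is needed for the exchange of H2A.Z, read 11.39 and 11.44 against 11.32 and 11.17, without overlap, and differed by -0.17 ± 0.13 (SE, adjusted p = 0.941).

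The ring subunits that all 3 complexes use lay close to 0. RUVBL1 read 11.98 and 11.90 in scramble and 12.01 and 11.86 in sh-ACTL6A, which gave -0.0018 ± 0.12 (SE) with an interval from -0.28 to 0.28. RUVBL2 read 13.19 and 13.21 against 13.26 and 13.15, which gave 0.0063 ± 0.095 (SE) with an interval from -0.21 to 0.23. A dimmer RUVBL2 probe set read 5.91 and 6.37 against 6.68 and 6.82, without overlap, and differed by 0.61 ± 0.35 (SE, adjusted p over probe sets = 0.960). On the brightest set of both genes the scramble arrays lay inside the range of the sh-ACTL6A arrays. Of the subunits common to SRCAP and TIP60, DMAP1 read 9.06 and 9.11 against 9.50 and 9.09. Only sh-ACTL6A replicate 1 was higher, so that the difference of 0.21 ± 0.19 (SE, adjusted p = 0.941) came with overlapping groups. YEATS4, a reader of acetylated histones, differed by 0.12 ± 0.15 (SE) and VPS72, which binds H2A.Z, by -0.10 ± 0.17 (SE). The 5 shared genes had a median of 0.0063, with 3 above 0 and 2 below.

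In the TIP60 group, 11 of 13 genes lay above 0 and 2 below, with a median of 0.068. The count of genes above 0 was 10 after quantile normalisation and 12 with median centring, which itself raised the median of all genes from 0.0090 to 0.041, and it was 9 without scramble replicate 2 and 9 without sh-ACTL6A replicate 1. KAT5, the acetyltransferase, read 8.83 and 9.37 in scramble and 9.21 and 9.52 in sh-ACTL6A. The groups overlapped, and the difference was 0.27 ± 0.23 (SE, adjusted p = 0.941). All 3 KAT5 probe sets are of the _x_at class, and they ran from -0.17 to 0.27. EP400, the ATPase, read 9.96 and 9.86 against 9.97 and 9.87 and differed by 0.0070 ± 0.15 (SE). TRRAP, the scaffold that receives activators, read 11.46 in both scramble replicates, against 11.73 and 11.51 in sh-ACTL6A, without overlap and with a difference of 0.16 ± 0.13 (SE, adjusted p = 0.941).

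MORF4L1, which binds methylated H3 tails through its chromodomain, gave the smallest unadjusted p of the 30 genes (0.0129 in limma). Its signal was 13.85 and 13.82 in scramble and 14.05 and 14.17 in sh-ACTL6A. Both sh-ACTL6A arrays were higher, and the difference of 0.27 ± 0.085 (SE) has an interval from 0.077 to 0.47, or 1.21-fold in linear signal (interval 1.05 to 1.39). It did not pass over all genes (limma adjusted p = 0.767). Without sh-ACTL6A replicate 1 it passed at an adjusted p of 0.0247, in a fit that assumes the remaining sh-ACTL6A array to vary like the scramble pair and that called 401 genes in all. Its other probe sets read 13.73 and 13.54 against 13.81 and 13.84, and 13.19 and 13.32 against 13.42 and 13.53. They differed by 0.19 and 0.22, and none of the 3 overlapped. The probe sets are of the _s_at class, shared between related transcripts, and MORF4L1 has near-identical retrotransposed copies, so signal from those copies cannot be told apart here. The paralogue MORF4L2 read 14.27 and 14.22 against 14.27 and 14.21 and differed by -0.0019 ± 0.077 (SE). The difference between the paralogues was not tested. A second MORF4L2 probe set, just above the signal threshold at 5.44 and 5.46 against 6.04 and 5.72, differed by 0.43.

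JAZF1, a zinc finger protein of TIP60, had the highest value of the 30 genes at 0.45 ± 0.28 (SE, adjusted p = 0.918). It read 7.89 and 7.80 in scramble and 7.92 and 8.68 in sh-ACTL6A, so that sh-ACTL6A replicate 2 stood far above the other arrays. A second probe set read 7.58 and 7.48 against 7.79 and 8.64, with the same array highest. Without sh-ACTL6A replicate 2 the JAZF1 difference was 0.071. MBTD1, a reader of methylated H4, differed by 0.17 ± 0.15 (SE) and by 0.30 on a second probe set, both without overlap. MRGBP, which pairs with MORF4L1, read 11.55 and 11.22 in scramble and 10.96 and 11.23 in sh-ACTL6A. Replicate 2 of both groups nearly coincided, and the difference was -0.29 ± 0.17 (SE, adjusted p = 0.918). The scaffold paralogues EPC1 and EPC2 differed by 0.071 ± 0.14 (SE) and 0.0064 ± 0.16 (SE). ING3, a reader of methylated H3, differed by 0.066, MEAF6 by 0.068 and the bromodomain protein BRD8 by 0.052.

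**Figure D3:**
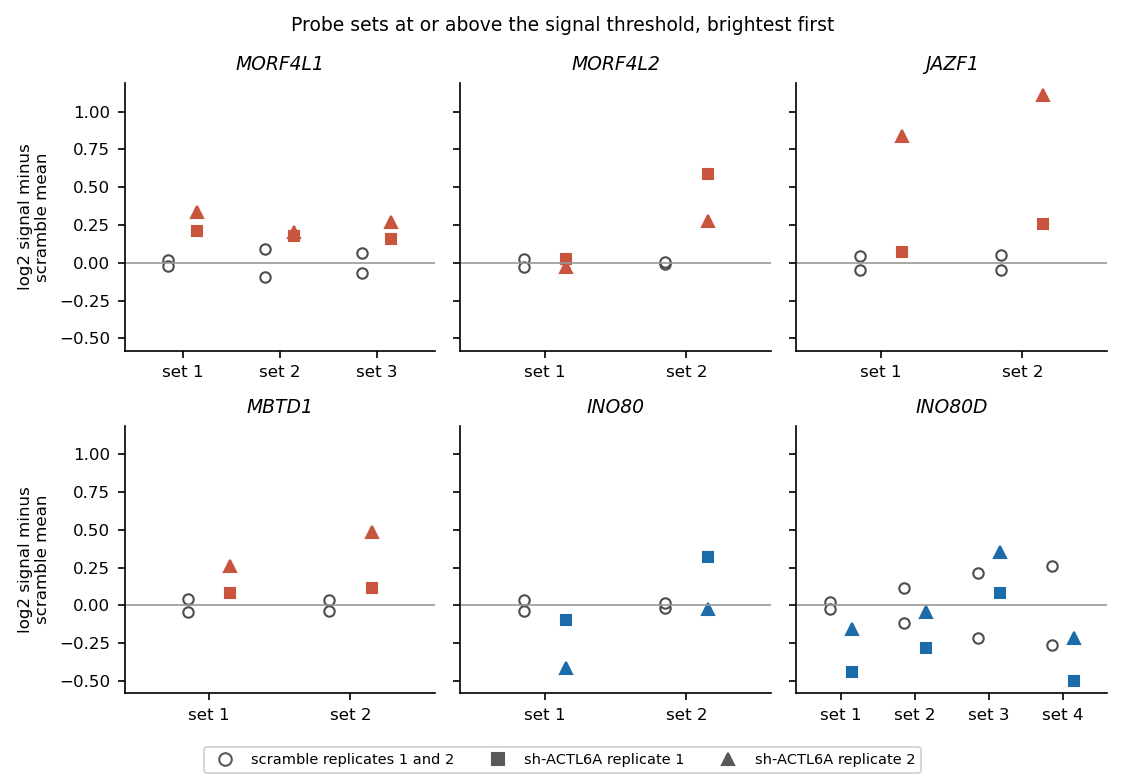
Log2 signal minus the scramble mean of the same probe set (vertical axis) for the probe sets above the signal threshold of 6 subunit genes (horizontal axis, brightest first). Open circles stand for scramble, squares for replicate 1 and triangles for replicate 2 of sh-ACTL6A. The 3 MORF4L1 sets lie above scramble, with mean differences of 0.19 to 0.27, and JAZF1 is highest on replicate 2 in both sets. The mean differences of the INO80 sets have opposite signs, while replicate 2 lies below 0 in both.

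The 30 genes had 76 probe sets, of which 66 reached the signal threshold. None passed an adjusted p of 0.05 when all 54613 probe sets were tested (lowest limma adjusted p = 0.960, with 0% of all probe sets called). The ACTL6A set did not pass in that fit either (limma adjusted p = 0.281), so it could miss a fall of 1.63. At an unadjusted p under 0.05 there were 3 subunit sets, beside 5.01% of all probe sets. They were the brightest MORF4L1 set and a pair below the signal threshold. A dim BRD8 set read 3.51 and 1.92 against 5.39 and 5.02 and differed by 2.49 ± 0.85 (SE), while the brightest BRD8 set differed by 0.052. A dim MBTD1 set of the _x_at class read 5.56 and 4.38 against 2.44 and 3.22 and differed by -2.14 ± 0.82 (SE), opposite to the bright sets. With all probe sets averaged MBTD1 therefore turned to -0.55. Of 18 genes with several probe sets above the threshold, 6 had the same sign in every one and 12 had mixed signs, while 51.6% of all such genes had the same sign in every one. The 6 were INO80C, RUVBL2, TRRAP, MORF4L1, MBTD1 and JAZF1. The comparison with all genes was not matched for the number of probe sets per gene, and more sets leave more room for mixed signs. ING3 had 3 such sets from -0.61 to 0.066, and their mean was -0.23, opposite to the brightest set. NFRKB had 4, from -0.38 to 0.37.

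**Figure D4:**
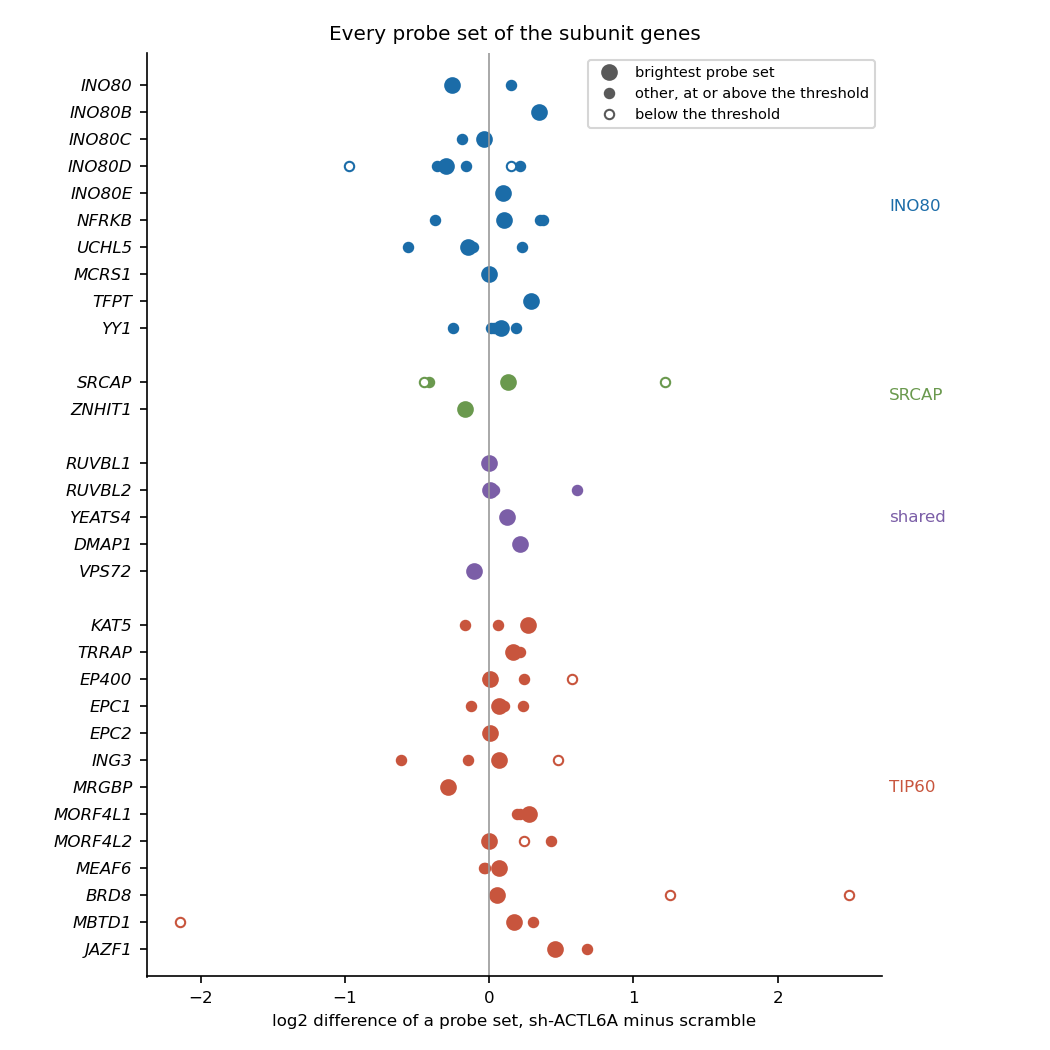
Log2 difference of every probe set of the 30 subunit genes (horizontal axis, sh-ACTL6A minus scramble; vertical axis, gene, coloured by complex), with large points for the brightest set, small points for others at or above the signal threshold and open points for sets below it. The values farthest from 0, at 2.49 for BRD8 and -2.14 for MBTD1, come from sets below the threshold.

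A further list held 15 partners of these complexes, all of which were tested. ACTL6A alone passed. Of the other 14 genes, 9 lay above 0 and 5 below, with a median of 0.058. Both sh-ACTL6A arrays lay above both scramble arrays for 7 of them (ACTR6, ACTR8, H2AZ2, H2AX, ANP32E, TTI2 and PIH1D1). That is 50% of the 14, beside 19.3% of all genes. Both lay below for 1, ACTR5, which is 7.1%, beside 15.4% of all genes. These shares were not tested. On the brightest probe sets, the actin-related subunits ACTR5 and ACTR6, of INO80 and SRCAP, differed by -0.11 and 0.051, and actin itself (ACTB) by -0.080. Dimmer sets above the threshold differed by 0.027 for ACTR5 and, without overlap, by 0.86 ± 0.49 (SE) for ACTR6. ACTR8, of INO80, read 8.94 and 9.05 in scramble and 9.20 and 9.27 in sh-ACTL6A, without overlap, and differed by 0.24 ± 0.17 (SE, adjusted p = 0.930). Its other probe set above the threshold differed by 0.014, with overlapping groups. The histone genes H2AZ1 and H2AZ2, which encode the H2A.Z that SRCAP deposits, differed by -0.014 ± 0.072 (SE) and 0.084 ± 0.10 (SE). H2AX, the H2A variant that is phosphorylated at DNA breaks, read 12.26 and 12.56 against 12.60 and 12.87 and differed by 0.33 ± 0.15 (SE, adjusted p = 0.915), while its other probe sets above the threshold differed by 0.44 and -0.19. ANP32E, a chaperone that removes H2A.Z, differed by 0.18 ± 0.097 (SE), with its 3 probe sets all higher without overlap, at 0.15 to 0.57. On the brightest probe sets, none of the factors that assemble RUVBL or TRRAP (TELO2, TTI1, TTI2, PIH1D1, RPAP3 and ZNHIT2) differed by more than 0.18. A dimmer ZNHIT2 set above the threshold differed by 0.66 ± 0.51 (SE), with overlapping groups.

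**Figure D5:**
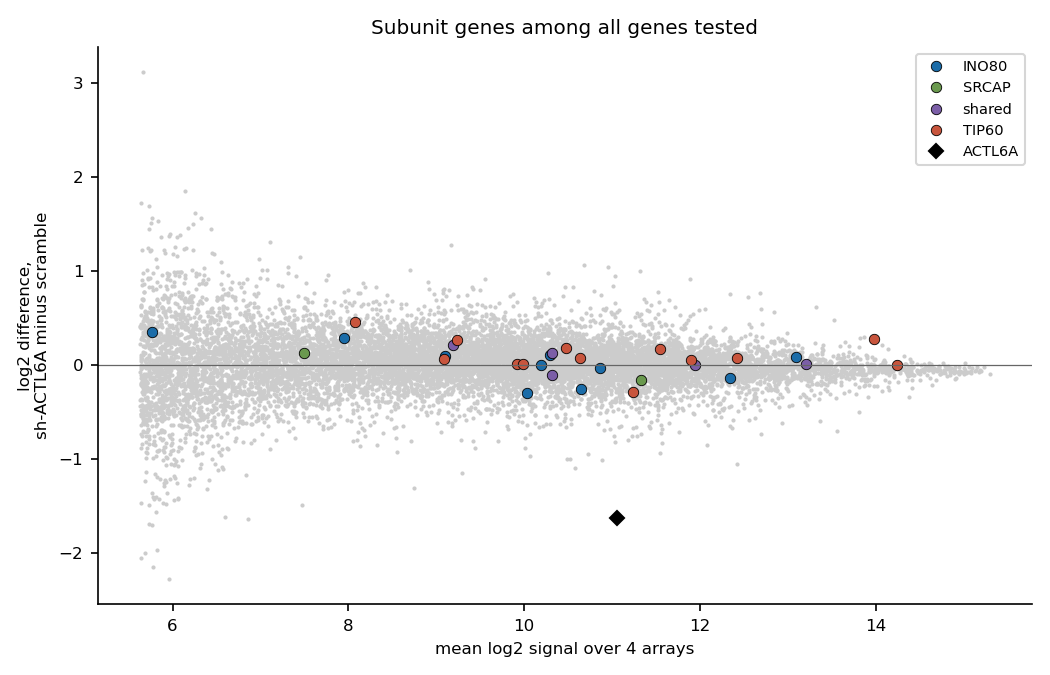
Log2 difference (sh-ACTL6A minus scramble, vertical axis) against mean log2 signal over 4 arrays (horizontal axis), with grey points for the 12286 genes tested, coloured points for the 30 subunit genes by complex and a diamond for ACTL6A. The subunit genes lie between -0.30 and 0.45 and spread over most of the signal range, and ACTL6A lies at -1.63.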

How the data were processed

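Total RNA from 4 SNU638 samples was labelled with biotin and hybridised to single-colour arrays. The deposited table holds 54675 probe sets as log2 signals made by the authors with MAS5, as the submitters' processing notes name it, in a version not given in the sources used here. Each array was scaled alone under MAS5, to a linear mean of 500.0 once the highest and lowest 2% of signals were set aside. Signals of dim probe sets vary widely under this method, and the number of arrays limits precision. Groups came from the sample titles. Values were used as deposited. Probe sets were named from the platform annotation, where 41091 had 1 symbol. Gene identifiers of 41037 were found in the GRCh38.p14 gene table, with 0 symbols changed. The brightest probe set stood for a gene, and genes with a mean log2 signal at or above the 50th percentile of 54613 non-control probe sets were tested.

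The groups were compared in R 4.3.3 by limma 3.58.1 (lmFit and eBayes, 2-sided, with an intensity trend and 7.65 degrees of freedom). Benjamini-Hochberg adjustment ran over the 12286 genes, and over 54613 probe sets in a second fit. No p-value was adjusted over the subunits alone, and groups of subunits were described by counts and medians. With 2 arrays against 2, an exact permutation test cannot give a p below 1 in 3. The fit was tested on simulated data with independent noise whose spread followed mean signal alone. Spread particular to a gene and effects shared by arrays were therefore not covered. The subunits, the partner list and the naming rule were chosen with earlier results of these data known. The rule named every subunit, with all values for the ATPases, KAT5, TRRAP and any subunit that differed by at least 0.2 or had an unadjusted p under 0.05. Alternatives covered normalisation, filters, probe set choice, an offset, the variance model, a replicate block, single arrays left out and the methods' t-test.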

Additional observations from a re-analysis of the deposited data

How the results depend on the processing

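No subunit gene passed under any alternative that used all 4 arrays, the methods' t-test included. The fits that leave out 1 array called 0 to 1 of them, the 1 being MORF4L1 without sh-ACTL6A replicate 1. No subunit probe set was called in any fit run over probe sets, and the main one of these did not call ACTL6A either. The replicate numbers are not stated to mark a shared batch or day, and deviations of same-numbered arrays correlated at 0.0565 over all genes tested and 0.369 over the 30 subunits. With the replicate number as a block 0 subunit genes passed (lowest limma adjusted p = 0.497), and the genes called in all went from 1 to 2. The ACTL6A call was also lost after quantile normalisation, with no filter, without the intensity trend and in the methods' t-test (adjusted p = 0.0522, 0.0797, 0.556 and 0.844). The number of subunits whose groups lay apart with sh-ACTL6A higher fell to 4 after quantile normalisation, which is 13.3%, beside 18.4% of all genes. With 1 array left out, which makes separation easier, 11 to 18 were higher and 5 to 10 lower, or 36.7% to 60.0% and 16.7% to 33.3%, beside 31.7% to 39.2% and 28.2% to 36.4% of all genes. The median of all subunits was 0.10 with median centring, 0.029 with the stricter filter, which left 26 of them, and 0.017 to 0.060 with 1 array left out. The INO80 median was -0.016 with the stricter filter and -0.047 to 0.043 with 1 array left out. The TIP60 median was 0.10 with median centring and 0.054 to 0.093 with 1 array left out. The median of the shared subunits was 0.12 with the mean of all probe sets and 0.12 with the mean of those above the threshold, and 0.0094 to 0.075 with 1 array left out.

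Of 416 values of single subunits under the alternatives, 379 kept their sign, and 13 of the 30 genes kept it throughout. The changes of filter, the fit without the intensity trend, the replicate block and the methods' t-test leave each subunit's difference as it was. Signs could not turn there, so the count of 379 overstates how stable they were. After quantile normalisation MCRS1 turned to -0.026, RUVBL1 to 0.0074, EP400 to -0.017, EPC2 to -0.017 and MORF4L2 to 0.030. With median centring RUVBL1 and MORF4L2 turned to 0.030 each. With the mean of all probe sets ING3 turned to -0.052, MORF4L2 to 0.22 and MBTD1 to -0.55. With the mean of those above the threshold ING3 turned to -0.23, MORF4L2 to 0.22 and SRCAP to -0.14. Signs also changed with 1 array left out. The ranges were -0.42 to 1.12 for INO80B, -0.11 to 0.045 for INO80C, -0.058 to 0.26 for NFRKB, -0.32 to 0.036 for UCHL5, -0.055 to 0.058 for MCRS1, -0.079 to 0.075 for RUVBL1 and -0.047 to 0.060 for RUVBL2. They were -0.0038 to 0.54 for KAT5, -0.047 to 0.061 for EP400, -0.14 to 0.15 for EPC2, -0.031 to 0.027 for MORF4L2, -0.055 to 0.19 for MEAF6, -0.054 to 0.16 for BRD8, -0.25 to 0.042 for VPS72 and -0.25 to 0.51 for SRCAP. Some values kept their sign but moved by over 1.5 times with 1 array left out, such as TFPT (0.068 to 0.51), DMAP1 (0.0094 to 0.42), MRGBP (-0.45 to -0.12), TRRAP (0.054 to 0.27) and JAZF1 (0.071 to 0.84). The cause of these changes was not tested, beyond the fewer genes or arrays that some alternatives use.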
